A study of Mus musculus with 69 samples.

Results

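Described here are 35 mouse genes of cholesterol and fatty acid synthesis: 19 enzymes of the sterol branch, 6 regulators and 10 enzymes of the fatty acid branch. They were taken by gene symbol from 3 count tables. Each symbol has 1 row in each table, out of 54532 rows in the microglia table, 54532 in the agonist hippocampus table and 54429 in the inhibitor hippocampus table. All 35 passed the low-count filter in each experiment, which left 14468, 17218 and 17128 genes to test.

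Counts from the 3′ ends of mRNAs were available for 69 libraries. The first experiment used primary microglia, the macrophages of the brain, from pups of postnatal days 1 to 3; the cells were male or female, wild type (WT) or Tlr7 knockout (KO), and received DMSO or myelin, with 3 libraries in each of the 8 groups. Tlr7 is an X-linked gene for an endosomal receptor of single-stranded RNA. The second experiment used hippocampus of WT males and females; gardiquimod, which activates TLR7, was set against saline, with 7 libraries for each sex and treatment. Its males were 12.12 and its females 9.60 months old, so sex and age cannot be told apart there. The third used hippocampus of PSUK+ mice aged 5.50 to 6.85 months, given control or a TLR7 inhibitor: 3 male and 3 female control libraries, 6 male and 5 female inhibitor libraries. Ages were not balanced over these groups. Male controls were all 5.50 months old and male inhibitor mice 5.50 or 6.06. Female controls were 5.50 or 6.85 months old and female inhibitor mice 5.50, 6.06 or 6.85. Sex and treatment are thus partly mixed with age in this experiment. The dose, the duration, the knockout allele, the inhibitor's name and what PSUK stands for are not given in the labels. For all 69 libraries, hippocampus included, the labels name nuclear RNA as the molecule and describe RNA isolated from microglia, which for hippocampus conflicts with the labelled source. Neither do the labels say whether the microglia libraries of a group came from separate animals or cultures, so the p-values below measure the spread between these libraries, which may be technical.

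SREBP transcription factors sit in the endoplasmic reticulum membrane bound to the escort protein SCAP. When membrane sterol is low, SCAP carries them to the Golgi, where proteases release the active part; when sterol is plentiful, INSIG proteins hold SCAP back. SREBP2, from Srebf2, acts mainly on sterol genes, and SREBP1c, from Srebf1, mainly on fatty acid genes. Microglia that engulf myelin take up large amounts of its cholesterol.

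Shown are the promoters of 5 members that fell strongly with myelin, and of none with a small response. They belong to sterol enzymes (Hmgcs1, Idi1, Cyp51), the SREBP2 gene (Srebf2) and the fatty acid enzyme with the largest fall (Fads2). Each runs 5′ to 3′ on the gene's strand from 250 bases before the RefSeq start to 50 bases from it on, in build GRCm38.p6. Capitals mark matches, on either strand, to the sterol regulatory element TCACNCCAC and to the NF-Y element CCAAT, which reads ATTGG when it lies on the opposite strand. Positions count from the start, with -1 the base before it.
Hmgcs1, chr13:119690101-119690400, plus strand: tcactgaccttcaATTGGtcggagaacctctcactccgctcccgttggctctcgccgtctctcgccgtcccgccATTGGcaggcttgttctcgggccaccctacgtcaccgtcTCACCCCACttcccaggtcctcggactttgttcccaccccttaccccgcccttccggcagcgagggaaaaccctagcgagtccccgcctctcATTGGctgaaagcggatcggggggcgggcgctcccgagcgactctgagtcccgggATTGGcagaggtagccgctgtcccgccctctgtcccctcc
Idi1, chr13:8885356-8885655, plus strand: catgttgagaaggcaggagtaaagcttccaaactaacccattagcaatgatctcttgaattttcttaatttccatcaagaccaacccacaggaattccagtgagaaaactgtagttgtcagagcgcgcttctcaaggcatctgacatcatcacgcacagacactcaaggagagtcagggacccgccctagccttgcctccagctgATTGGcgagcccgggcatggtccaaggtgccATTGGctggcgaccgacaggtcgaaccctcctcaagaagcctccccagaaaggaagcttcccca
Cyp51, chr5:4104648-4104947, minus strand: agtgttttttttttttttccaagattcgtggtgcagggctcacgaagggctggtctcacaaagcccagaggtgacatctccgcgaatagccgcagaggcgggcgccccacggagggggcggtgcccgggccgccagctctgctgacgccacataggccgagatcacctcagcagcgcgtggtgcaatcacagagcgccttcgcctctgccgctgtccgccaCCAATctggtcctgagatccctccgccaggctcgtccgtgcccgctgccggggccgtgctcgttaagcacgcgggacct
Srebf2, chr15:82147019-82147318, plus strand: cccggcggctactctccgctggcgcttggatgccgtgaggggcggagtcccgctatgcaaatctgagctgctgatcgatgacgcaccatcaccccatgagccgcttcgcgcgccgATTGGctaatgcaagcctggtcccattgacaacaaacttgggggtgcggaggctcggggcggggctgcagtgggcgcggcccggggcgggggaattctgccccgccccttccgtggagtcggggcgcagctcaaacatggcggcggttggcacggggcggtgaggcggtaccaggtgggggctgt
Fads2, chr19:10101454-10101753, minus strand: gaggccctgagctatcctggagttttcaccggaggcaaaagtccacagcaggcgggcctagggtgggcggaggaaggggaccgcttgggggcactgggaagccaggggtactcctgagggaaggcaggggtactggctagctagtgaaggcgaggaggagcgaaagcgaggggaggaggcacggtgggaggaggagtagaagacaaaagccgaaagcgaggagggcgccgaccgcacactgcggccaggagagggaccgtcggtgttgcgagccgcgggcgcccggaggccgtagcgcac
Hmgcs1 holds the sterol regulatory element at -137 and CCAAT at -237, -176, -45 and 11. Idi1 holds CCAAT at -45 and -14, Cyp51 at -29 and Srebf2 at -135, while the Fads2 window holds neither motif. Of the 35 members, 28 had at least 1 RefSeq promoter window. TCACNCCAC was present in 1 of the 28 (Hmgcs1), against 1.44% of 27025 genes in the table. CCAAT was present in 23 of the 28, among them 15 of 16 sterol enzymes, 4 of 5 regulators and 4 of 7 fatty acid enzymes, against 41.1% of all genes. The GC box GGGCGG was present in 23 of the 28, against 38.2%. Per window of 300 bases, CCAAT was in 24 of the 37 member windows and in 37.4% of 32851 windows. These matches describe letters in a short window, and some can overlap.

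Total counts per library ran from 15277642 to 21275491 in microglia, 14332532 to 23477906 in the agonist experiment and 14377831 to 21033158 in the inhibitor experiment. Values are CPM, counts scaled to the library size after TMM normalization, which equalizes the bulk of genes between libraries. Tlr7 measured 167 to 197 CPM in the 12 WT microglia libraries and 1.25 to 2.76 CPM in the 12 KO libraries, so each library matched its genotype label. In hippocampus Tlr7 measured 1.07 to 4.47 CPM. The 12 microglia markers, which include Cx3cr1, Tmem119 and Csf1r, summed to 5136 CPM or more in every microglia library. A gene is called when its adjusted p (edgeR quasi-likelihood test, Benjamini-Hochberg over all genes of the experiment) is under 0.05.

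Myelin lowered most of the module in all 4 kinds of microglia. Called lower were 29 of 35 members in male WT cells, where 19.4% of all genes tested were called lower, 28 in male KO cells, 28 in female WT cells and 31 in female KO cells. In the 3 latter cultures 20.2%, 21.1% and 20.4% of all genes were called lower. The set of 28 members called lower in all 4 cultures held 18 of the 19 sterol enzymes, 4 of the 6 regulators and 6 of the 10 fatty acid enzymes. Insig2, Scap, Acss2 and Scd1 passed the test in none of the 4. No member was called higher in more than 2 cultures; the 1 gene called higher was Scd2, in male KO (18.0% of all genes called higher) and female WT cells (19.3%). In male WT and female KO cells 0 members were called higher by edgeR and 0 by DESeq2, where edgeR called 20.0% and 20.8% of all genes higher; 29 and 31 members had an unadjusted p under 0.05 in these cultures, as many as were called lower. Same-numbered DMSO and myelin libraries of female KO cells deviated together, and with these numbers as a replicate block Scd1 was called higher there (0.51, adjusted p = 0.0022, against 0.221 without the block); the other calls of female KO cells stayed. The myelin and DMSO libraries did not overlap, with myelin lower, for 29, 28, 28 and 30 members in male WT, male KO, female WT and female KO cells, against 24.4%, 24.2%, 25.0% and 23.4% of all genes.

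**Figure D1:**
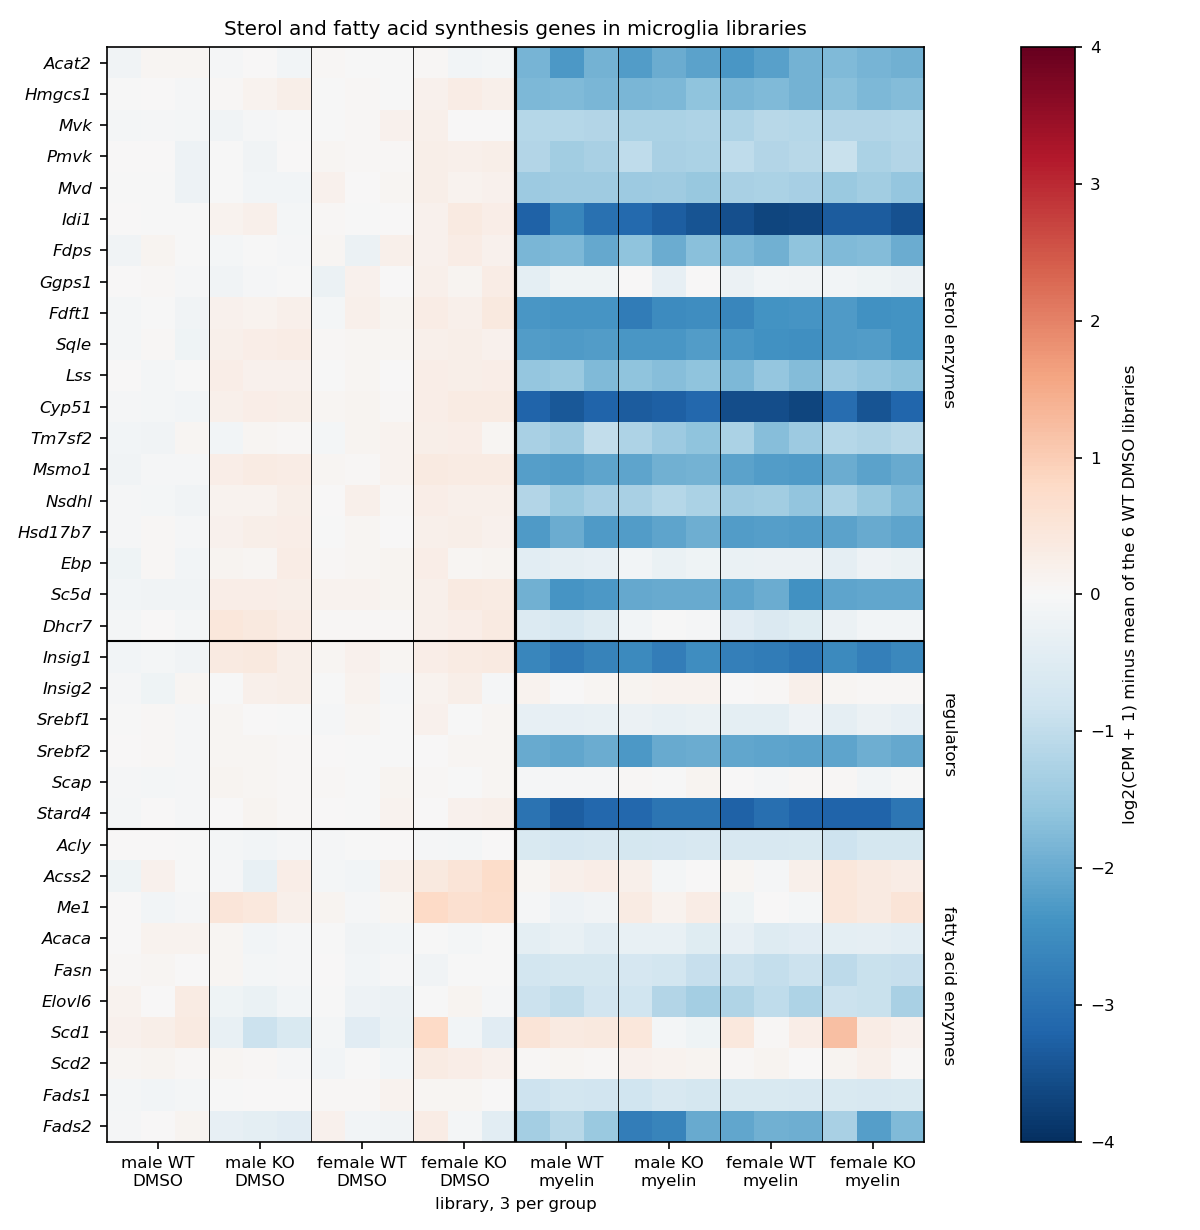
Expression of the 35 genes in the 24 microglia libraries: rows are genes in pathway order, split by black lines into sterol enzymes, regulators and fatty acid enzymes; columns are libraries; colour is log2(CPM + 1) minus the mean of the 6 WT DMSO libraries, blue lower and red higher. The 12 myelin columns are blue for nearly the whole sterol block, and pale for Insig2, Scap, Acss2 and Scd2.

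The sterol branch fell further than the fatty acid branch. The median log2 fold change of the 19 sterol enzymes was -1.82 in male WT, -1.90 in male KO, -1.87 in female WT and -1.95 in female KO microglia. For the 10 fatty acid enzymes it was -0.56, -0.47, -0.48 and -0.52 in the same order. Over all genes tested the median was 0.00, -0.01, 0.00 and 0.01. The difference between the branch medians was thus -1.25, -1.43, -1.39 and -1.43. A related value was taken per library: the sterol minus fatty acid median of log2(CPM + 1), each gene centred on its mean. Its pooled SD between replicate libraries was 0.05, which is not the error of the differences between fold changes. Members are not replicates of each other, and the medians carry no test.

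**Figure D2:**
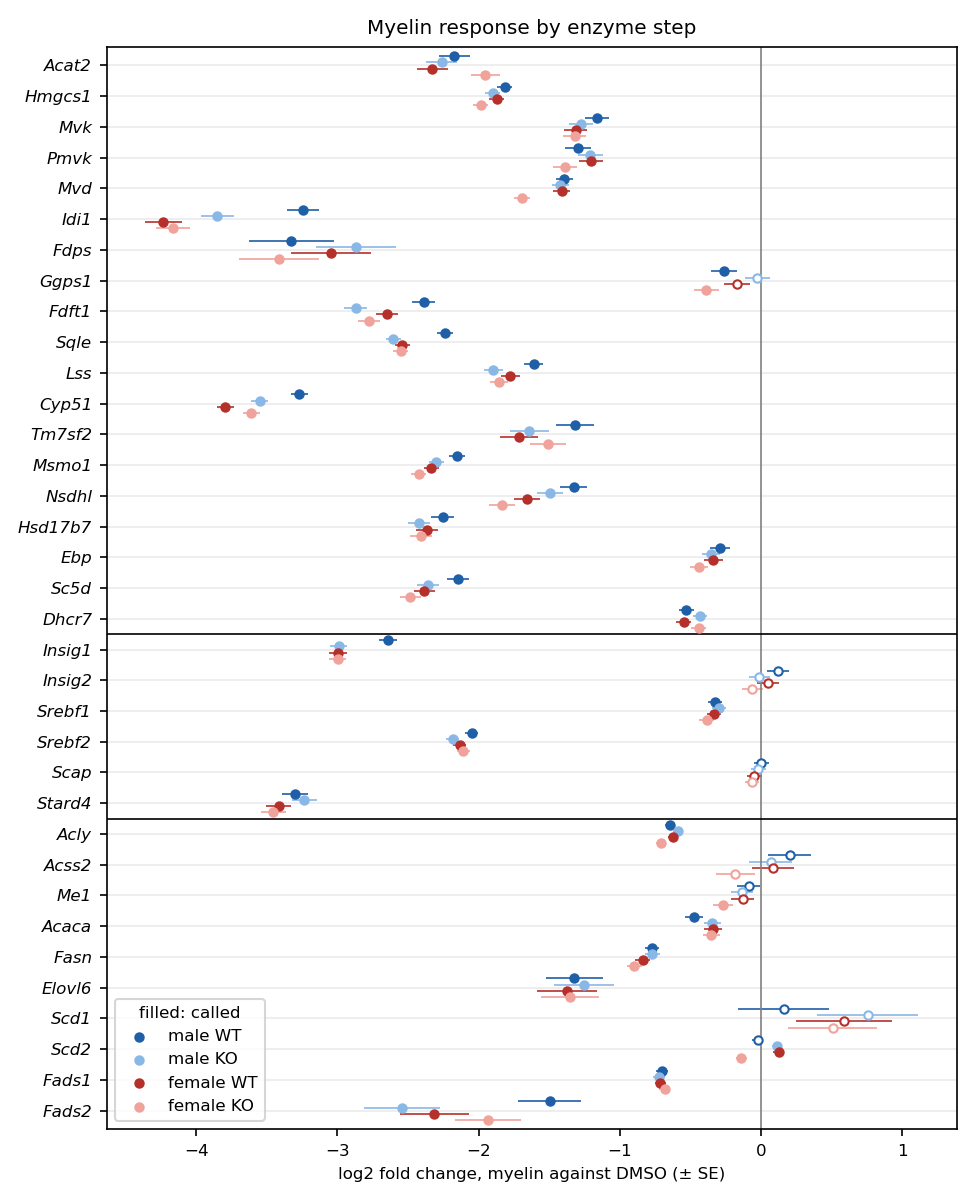
Log2 fold change of each member, myelin against DMSO, with its standard error, in male WT, male KO, female WT and female KO microglia; filled points passed the test. Sterol enzymes at the top lie between about -1 and -4 apart from Ggps1, Ebp and Dhcr7, whereas fatty acid enzymes at the bottom lie nearer 0 apart from Elovl6 and Fads2.

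At the entry of the sterol branch, Acat2 condenses acetyl-CoA and Hmgcs1 makes HMG-CoA. Hmgcs1 measured 121, 125 and 120 CPM in male WT libraries with DMSO and 34.7, 35.4 and 33.9 CPM with myelin. Its log2 fold changes were -1.82 ± 0.05 (SE), -1.90 ± 0.05, -1.87 ± 0.05 and -1.99 ± 0.05 in male WT, male KO, female WT and female KO cells, the order used throughout; values in parentheses after a fall are log2 fold changes. Acat2 fell (-1.95 to -2.33) on the log2 scale. The groups of 3 did not overlap for either gene in any culture.

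The next 6 enzymes turn mevalonate into isoprenoid diphosphates. Mvk and Pmvk, the 2 kinases, fell (-1.16 to -1.39), and Mvd, the decarboxylase (-1.39 to -1.69). Idi1, the isomerase that makes dimethylallyl diphosphate, had the largest fall of the branch averaged over the 4 cultures. In male WT libraries Idi1 measured 31.7, 31.1 and 31.0 CPM with DMSO and 2.47, 4.31 and 3.07 CPM with myelin; in male KO libraries it measured 34.7, 36.3 and 29.7 CPM, then 2.80, 2.32 and 1.97 CPM. In female WT libraries it went from 32.6, 30.9 and 31.7 CPM to 1.83, 1.56 and 1.63 CPM, and in female KO libraries from 35.4, 40.7 and 38.0 CPM to 2.21, 2.21 and 1.92 CPM. Every myelin library was far below every DMSO library, and the fitted falls were 9.47, 14.4, 18.8 and 17.9-fold (log2 -3.24 ± 0.11, -3.85 ± 0.12, -4.23 ± 0.13 and -4.16 ± 0.12; largest adjusted p 4.6e-31). Fdps, the farnesyl diphosphate synthase, fell (-2.87 to -3.41), on 4 to 13 counts per myelin library. It was low with DMSO too, at 3.65, 4.58 and 4.06 CPM in male WT libraries. Fdps overlaps the gene models Gm22935 and Gm43738 on the same strand, and the part of this overlap in its values was not tested.

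Ggps1 leaves the sterol route here: it makes geranylgeranyl diphosphate for protein prenylation. It was the member of the branch with the smallest response. Its 3 libraries measured 20.5, 20.9 and 19.7 CPM with DMSO and 15.3, 17.6 and 17.9 CPM with myelin in male WT cells, and 18.3, 19.3 and 19.9 CPM against 20.2, 15.9 and 20.3 CPM in male KO cells. The groups were apart in the first culture and overlapped in the second. The log2 fold changes were -0.26 ± 0.09 (adjusted p = 0.018), -0.03 ± 0.09 (0.86), -0.17 ± 0.09 (0.13) and -0.39 ± 0.09 (0.00026). The male WT call was lost without DMSO library 2 (adjusted p = 0.0617) or myelin library 1 (0.103). Ggps1 overlaps Arid4b on the other strand, and whether the counting used strand is not given in the sources used here.

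The 3 steps from farnesyl diphosphate to lanosterol fell together. Sqle, the squalene epoxidase, measured 94.5, 101 and 88.4 CPM with DMSO and 20.1, 19.6 and 20.4 CPM with myelin in male WT cells. Its log2 fold changes were -2.24 ± 0.06, -2.60 ± 0.05, -2.54 ± 0.06 and -2.55 ± 0.05. Fdft1, the squalene synthase, fell (-2.39, -2.87, -2.65 and -2.77), and Lss, the lanosterol synthase (-1.61, -1.90, -1.78 and -1.86). Fdft1 overlaps Ctsb, which has a mean of 196150 counts against 592 for Fdft1 in the microglia libraries, on the other strand, so the Fdft1 values are uncertain where reads were not split by strand.

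After lanosterol the fall was uneven along the route. Cyp51, the lanosterol demethylase, had the smallest p of the branch in male WT cells. It measured 136, 132 and 129 CPM with DMSO and 14.3, 12.6 and 14.2 CPM with myelin in male WT libraries, and 159, 168 and 165 CPM against 13.1, 13.7 and 14.9 CPM in male KO libraries. In female WT libraries it went from 149, 150 and 145 CPM to 11.0, 11.0 and 9.97 CPM, and in female KO libraries from 168, 176 and 175 CPM to 16.2, 11.8 and 14.5 CPM. No myelin library came near a DMSO library: the falls were 9.65, 11.7, 13.9 and 12.2-fold (largest adjusted p 2.5e-44). Cyp51 overlaps Akap9 on the other strand.

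Between Cyp51 and the end of the route, Msmo1, a sterol methyl oxidase, fell (-2.15 to -2.43), Hsd17b7, a ketosteroid reductase (-2.25 to -2.42), and Sc5d, a sterol desaturase (-2.15 to -2.48). Nsdhl, a sterol dehydrogenase, fell (-1.33 to -1.84) and Tm7sf2, a sterol reductase (-1.32 to -1.71); Tm7sf2 overlaps Vps51 on the same strand. Ebp, the sterol isomerase, and Dhcr7, which reduces the last precursor to cholesterol, changed far less. Ebp fell (-0.29 to -0.44). Dhcr7 measured 60.6, 64.5 and 61.0 CPM with DMSO and 43.3, 40.6 and 44.9 CPM with myelin in male WT cells, a fall of 1.44-fold, and its falls in the other 3 cultures were 1.35, 1.46 and 1.36-fold. The groups did not overlap for either gene in any culture.

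Among the regulators, Stard4, a cytosolic sterol carrier, had the largest response. It measured 51.7, 54.9 and 52.4 CPM with DMSO and 6.17, 4.63 and 5.33 CPM with myelin in male WT cells, and 55.7, 58.7 and 56.04 CPM against 5.33, 6.30 and 6.34 CPM in male KO cells. In female WT cells the values were 55.97, 54.1 and 59.9 CPM against 4.94, 5.94 and 5.08 CPM, and in female KO cells 55.1, 62.2 and 63.8 CPM against 5.06, 4.997 and 6.49 CPM. The groups did not overlap, and the fitted falls were 9.86, 9.41, 10.7 and 11.0-fold.

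Insig1, an SREBP target that itself retains SCAP, fell (-2.64, -2.99, -3.00 and -3.00), and Srebf2 (-2.05, -2.18, -2.14 and -2.11). Srebf1 fell (-0.33, -0.30, -0.33 and -0.39), which is about the size of the falls in Acaca. Srebf1 overlaps Rai1 on the other strand. Scap was the regulator with the smallest change: it measured 53.0, 51.9 and 52.8 CPM with DMSO and 52.6, 52.6 and 52.7 CPM with myelin in male WT cells, and its fold changes lay between -0.07 and 0.00. Insig2, the paralogue of Insig1, had fold changes of 0.12, -0.01, 0.05 and -0.06 with SEs of 0.08. The groups overlapped for both genes in all 4 cultures.

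In the fatty acid branch the supply of acetyl-CoA and NADPH changed least. Acly, which cleaves citrate to acetyl-CoA, fell (-0.65, -0.59, -0.62 and -0.71). Acss2, which makes acetyl-CoA from acetate, had fold changes of 0.20 ± 0.15, 0.07 ± 0.15, 0.08 ± 0.15 and -0.18 ± 0.14 and passed in none. It overlaps Gss on the other strand, which has a mean of 346 counts against 112 for Acss2 in the microglia libraries, so its values are uncertain in the same way as those of Fdft1. Me1, the cytosolic malic enzyme, was called in female KO cells, at -0.27 ± 0.07 (adjusted p = 0.0017), against -0.09, -0.14 and -0.13 in the others. No difference in its response between cultures passed the test.

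The synthesis of saturated chains fell at each of its 3 steps. Acaca, the acetyl-CoA carboxylase, fell (-0.48, -0.35, -0.34 and -0.35), and Fasn, the fatty acid synthase (-0.77, -0.77, -0.84 and -0.90). Elovl6, the elongase from palmitate to stearate, fell by 2.50, 2.39, 2.60 and 2.56-fold, at low levels of 1.33 to 2.51 CPM with myelin.

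The desaturases split. Fads2, the delta-6 desaturase of polyunsaturated fatty acids, fell most of the branch: from 12.9, 13.4 and 14.3 CPM to 4.61, 5.69 and 4.08 CPM in male WT cells and from 10.3, 9.98 and 9.53 CPM to 1.09, 1.31 and 2.51 CPM in male KO cells. It fell from 15.1, 12.3 and 12.1 CPM to 2.42, 2.81 and 2.70 CPM in female WT cells and from 16.4, 12.5 and 9.72 CPM to 4.83, 2.10 and 3.19 CPM in female KO cells. The groups did not overlap, and the falls were 2.82, 5.83, 4.97 and 3.82-fold. Fads1, the delta-5 desaturase, which lies beside Fads2 on chromosome 19, fell (-0.68 to -0.72) in all 4 cultures.

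The stearoyl-CoA desaturases did not follow. Scd2 measured 243, 248 and 239 CPM with DMSO and 238, 243 and 238 CPM with myelin in male WT cells, which overlap. It measured 245, 238 and 225 CPM against 262, 257 and 246 CPM in male KO cells, and 215, 229 and 213 CPM against 237, 246 and 233 CPM in female WT cells, higher with myelin in both. In female KO cells it went the other way, from 292, 278 and 259 CPM to 249, 264 and 240 CPM, with overlap. Its log2 fold changes were -0.02 ± 0.04, 0.11 ± 0.04, 0.12 ± 0.04 and -0.14 ± 0.04. The male KO call was lost without DMSO library 3 (adjusted p = 0.0655) or myelin library 2 (0.0792), and the female WT call without DMSO library 3 (0.0574) or myelin library 2 (0.114). Both were also lost when libraries were scaled by their totals alone (adjusted p = 0.228 and 0.140). Scd1 had fold changes of 0.16 ± 0.32, 0.75 ± 0.36, 0.59 ± 0.34 and 0.51 ± 0.31 and was called in none; its libraries were scattered, with 14.1, 7.09 and 5.31 CPM in female KO DMSO cells.

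Other cell markers moved with myelin. The summed level of 12 oligodendrocyte markers was 206 to 245 CPM with DMSO and 542 to 643 CPM with myelin in male WT cells, 213 to 246 against 565 to 630 CPM in male KO, 261 to 312 against 652 to 752 CPM in female WT and 189 to 206 against 528 to 892 CPM in female KO cells. None of the 12 was at 0 in a group. The 12 microglia markers went from 6630 to 6902 CPM down to 5287 to 5443 CPM in male WT cells, from 6403 to 6634 CPM down to 5539 to 5574 CPM in male KO, from 6806 to 6824 CPM down to 5136 to 5308 CPM in female WT and from 6386 to 6556 CPM down to 5143 to 5238 CPM in female KO cells. The 8 astrocyte markers were 58.2 to 62.5 CPM with DMSO and 39.3 to 44.6 CPM with myelin in male WT, 45.04 to 63.3 against 28.0 to 30.3 CPM in male KO, 49.97 to 56.5 against 37.7 to 53.4 CPM in female WT and 55.2 to 68.6 against 33.5 to 45.4 CPM in female KO cells, and overlapped in female WT cells alone. The 7 oligodendrocyte precursor markers were 82.9 to 138 CPM with DMSO and 89.9 to 151 CPM with myelin over all groups, with myelin above DMSO and no overlap in male KO and female WT cells. The 5 endothelial markers were 35.1 to 54.1 CPM and 29.3 to 50.8 CPM, with myelin below DMSO and no overlap in male WT and female WT cells. Of these, Cldn5 was at 0 in every group. In all, 2 of the 5 were at 0 in male WT, male KO and female WT cells with DMSO. The same number were at 0 in female WT and female KO cells with myelin. The part of these cell types in the fall of the sterol genes was not tested.

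A wider list of 39 further genes of sterol uptake, fatty acid activation and SREBP processing, of which 36 could be tested, was mixed. With myelin 9 were called higher and 17 lower in male WT, 11 and 19 in male KO, 10 and 18 in female WT and 9 and 18 in female KO cells. The shares over all genes were 20.0% higher and 19.4% lower in male WT and 18.0% and 20.2% in male KO cells. In female WT cells they were 19.3% and 21.1%, and in female KO cells 20.8% and 20.4%. The median fold change of the list was -0.11, -0.14, -0.14 and -0.15. Between genotypes, 11 were called higher and 2 lower in male DMSO, 6 and 3 in female DMSO, 8 and 6 in male myelin and 1 and 3 in female myelin cells. Of all genes, 11.6% were called higher and 9.32% lower in male DMSO, 5.42% and 6.48% in female DMSO, 10.1% and 10.6% in male myelin and 3.80% and 3.48% in female myelin cells. Lower in all 4 cultures were Acsl3, an acyl-CoA synthetase (-1.86, -2.04, -1.80 and -1.90), Pcyt2 of phosphatidylethanolamine synthesis (-1.26, -1.39, -1.35 and -1.44), Lpin1, a phosphatidate phosphatase (-1.24, -1.09, -1.25 and -1.21), Aacs, the acetoacetyl-CoA synthetase (-1.01, -1.14, -1.17 and -1.31), and Mlxipl, a carbohydrate-responsive transcription factor (-2.80, -2.75, -3.16 and -2.76). Higher in all 4 were Nr1h3, the oxysterol receptor LXR alpha (1.36, 1.40, 1.31 and 1.28), Acsl1 (1.08, 0.82, 1.14 and 0.87), and the lysosomal cholesterol transporter Npc1 (0.42, 0.27, 0.43 and 0.31). These genes were picked as examples from those called in all 4 cultures after their values were seen.

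Tlr7 knockout raised part of the sterol branch in cells without myelin. In male DMSO microglia 13 members were called higher and 1 lower in KO, where 11.6% of all genes were called higher and 9.32% lower. In female DMSO microglia 12 were called higher and 0 lower by edgeR, where 5.42% and 6.48% of all genes were. DESeq2 also gave 12 and 0 there, and 16 members had an unadjusted p under 0.05 in either direction. Sterol enzymes, which are 19 of the 35 members, made up 11 of the 13 and 8 of the 12. The female share is not far from that of the list. The 9 members higher in both sexes were Hmgcs1, Fdft1, Sqle, Lss, Cyp51, Msmo1 and Dhcr7 of the sterol branch, Insig1 and Me1.

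**Figure D3:**
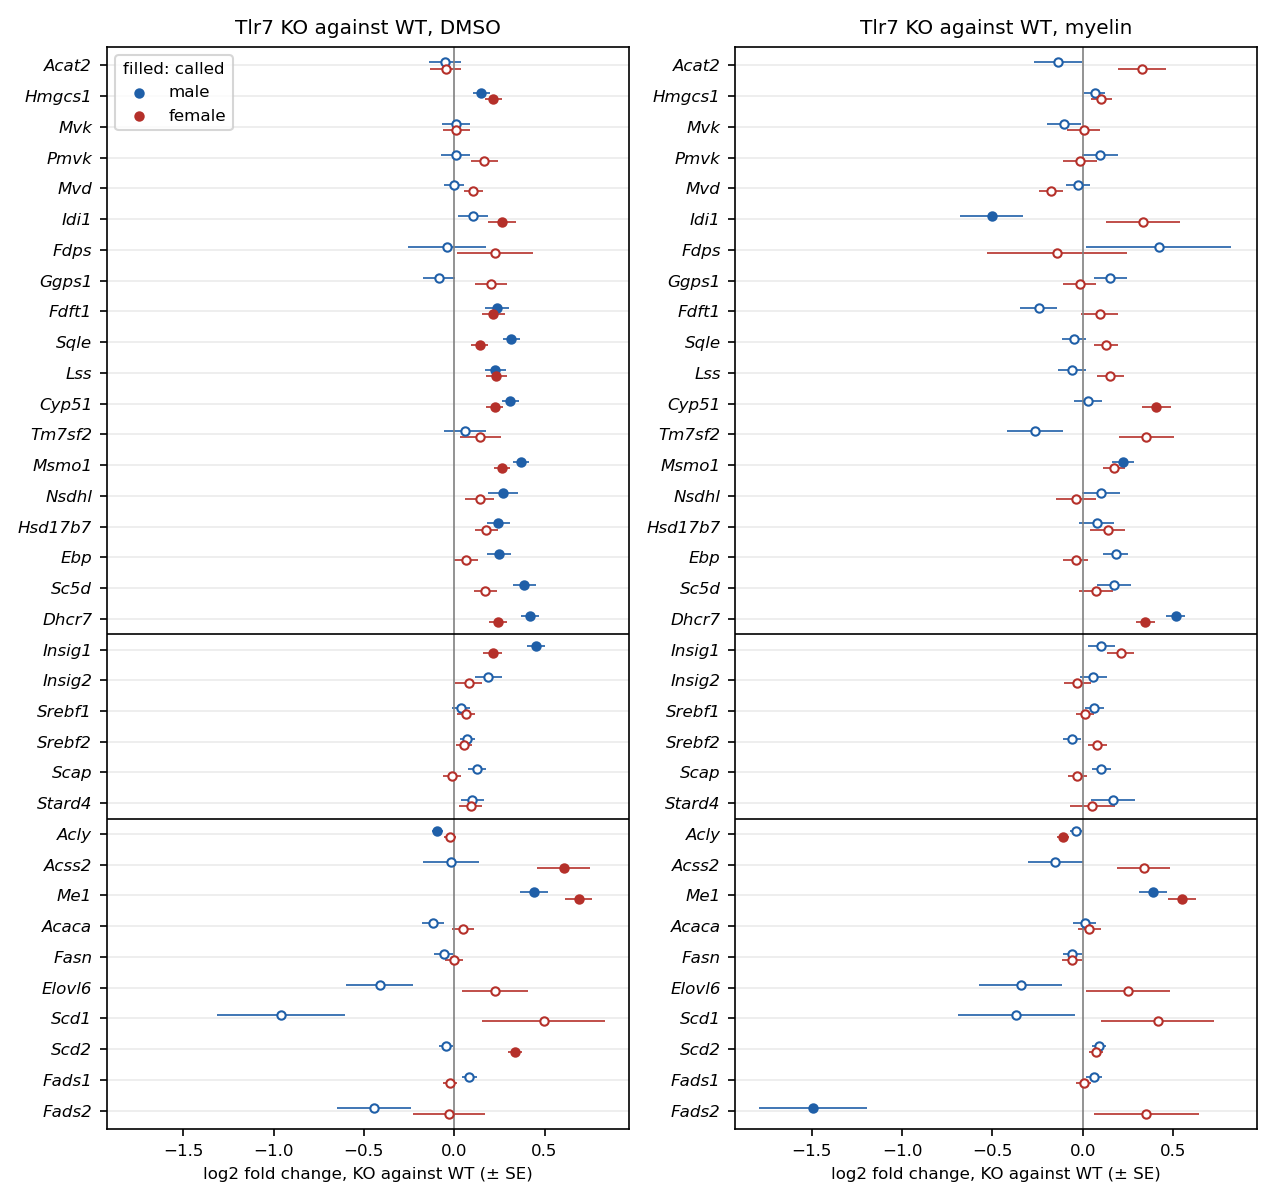
Log2 fold change of each member, Tlr7 KO against WT, with its standard error, in male and female microglia given DMSO (left) or myelin (right); filled points passed the test. In the DMSO panel the lower sterol enzymes, from Fdft1 to Dhcr7, lie to the right of 0 in both sexes; in the myelin panel most lie near 0, and those called higher are Dhcr7 and Me1 in both sexes, Msmo1 in males and Cyp51 in females.

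The calls were spread unevenly over the steps. The 3 enzymes from farnesyl diphosphate to lanosterol were all called higher in both sexes, with medians of 0.24 in males and 0.22 in females. Among them is Fdft1, with the overlap with Ctsb named above. Of the 8 enzymes after lanosterol, 7 were called in males (median 0.29) and 3 in females (median 0.18). Of the 6 between mevalonate and the isoprenoids, 0 were called in males (median 0.00) and 1, Idi1, in females (median 0.19). The whole sterol branch had a median of 0.23 in males and 0.18 in females, against -0.08 and 0.14 for the fatty acid branch and 0.00 and -0.01 for all genes.

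Dhcr7 was called higher in KO in all 4 comparisons. It measured 60.6, 64.5 and 61.0 CPM in male WT and 87.3, 83.6 and 78.2 CPM in male KO cells with DMSO, and 43.3, 40.6 and 44.9 CPM against 59.03, 63.5 and 61.6 CPM with myelin. In females it measured 65.5, 65.9 and 66.6 CPM against 74.4, 77.7 and 82.0 CPM with DMSO, and 46.8, 42.9 and 45.7 CPM against 54.2, 59.3 and 58.6 CPM with myelin. WT and KO did not overlap in any of the 4, and KO was 1.34, 1.43, 1.18 and 1.27-fold higher in male DMSO, male myelin, female DMSO and female myelin cells (largest adjusted p 0.00033). The share of all genes with no overlap between WT and KO is not given here. Statements of no overlap in the knockout comparisons therefore describe these libraries only.

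Me1 shared that pattern. With DMSO it measured 23.1, 21.3 and 21.9 CPM in male WT against 32.5, 31.0 and 26.5 CPM in male KO cells, and 24.9, 21.9 and 24.0 CPM in female WT against 40.8, 35.8 and 37.6 CPM in female KO cells. With myelin it measured 22.2, 19.5 and 20.8 CPM against 28.7, 25.0 and 28.3 CPM in males, and 20.3, 22.9 and 21.4 CPM against 31.9, 29.53 and 33.0 CPM in females. The groups did not overlap, and KO was 1.36 and 1.61-fold higher with DMSO and 1.31 and 1.46-fold higher with myelin in males and females (largest adjusted p 0.00015). The female and male effects did not differ by test (difference with DMSO 0.25 ± 0.11, adjusted p = 0.17).

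Msmo1 measured 102, 108 and 109 CPM in male WT and 135, 140 and 136 CPM in male KO cells with DMSO, and 117, 115 and 123 CPM against 144, 142 and 141 CPM in females. The groups did not overlap, and the changes were 0.37 ± 0.05 (adjusted p = 3.7e-09) and 0.27 ± 0.04 (1.3e-05). Sqle rose by 0.32 ± 0.05 in males (adjusted p = 2.7e-07) and 0.14 ± 0.05 in females (0.033), and the female call was lost without any of 5 of the 6 libraries (adjusted p 0.0648 to 0.128). Insig1 measured 121, 123 and 117 CPM in male WT and 169, 172 and 153 CPM in male KO cells, and 137, 147 and 138 CPM in female WT and 158, 164 and 168 CPM in female KO cells. It rose by 0.45 ± 0.05 in males and 0.21 ± 0.05 in females, with no overlap in either sex.

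The other sterol calls with DMSO lay between 0.15 and 0.39 on the log2 scale. In males they were Sc5d (0.39), Cyp51 (0.31), Nsdhl (0.27), Ebp (0.25), Hsd17b7 (0.24), Fdft1 (0.24), Lss (0.23) and Hmgcs1 (0.15). In females they were Idi1 (0.27), Lss (0.23), Cyp51 (0.22), Hmgcs1 (0.22) and Fdft1 (0.22). The male calls for Hmgcs1, Ebp and Nsdhl were lost without 4, 2 and 2 of the 6 libraries (highest adjusted p 0.228, 0.109 and 0.083, each without KO library 3), and the female calls for Idi1 and Fdft1 without 3 and 2 of 6 (highest 0.14 without KO library 2, and 0.216 without WT library 1). In the fatty acid branch, Acss2 (0.61 ± 0.14, with the overlap with Gss named above) and Scd2 (0.34 ± 0.04) were called higher in females, and Acly lower in males (-0.09 ± 0.03; lost without KO library 2 or WT library 1 or 2, adjusted p 0.0871 to 0.128, and with no low-count filter, 0.0742).

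How libraries were scaled changed the male count. Scaling by library totals alone moved the male DMSO fold changes by -0.09 and gave 7 members higher and 6 lower. The 7 were Sqle, Cyp51, Msmo1, Sc5d, Dhcr7, Insig1 and Me1, and the 6 were Acly, Acaca, Fasn, Elovl6, Scd1 and Scd2. The difference between the sterol and fatty acid medians, which scaling leaves alone, was 0.30 in male DMSO cells. It was 0.04 in female DMSO, 0.11 in male myelin and -0.06 in female myelin cells. In females the 2 signs turned when libraries were left out one at a time (-0.04 to 0.17 with DMSO and -0.13 to 0.06 with myelin).

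Choroid plexus markers also differed by genotype. The summed level of 8 such markers, which include Ttr, Folr1 and Kl, was 128 to 226 CPM in male WT and 4.58 to 22.2 CPM in male KO cells with DMSO, and 84.9 to 153 CPM in female WT against 45.9, 58.6 and 542 CPM in female KO cells. With myelin it was 147 to 211 CPM in male WT and 6.15 to 15.4 CPM in male KO cells, and 86.0 to 216 CPM in female WT against 44.4, 193 and 504 CPM in female KO cells. None of the 8 was at 0 throughout a DMSO group, and 1, Prlr, was in each KO myelin group. The 6 fibroblast markers were 9.86 to 20.9 CPM in male WT against 1.25 to 3.72 CPM in male KO cells with DMSO and 8.91 to 22.4 CPM against 1.25 to 1.84 CPM with myelin. The 8 neuron markers were 10.4 to 10.5 CPM against 4.28 to 5.37 CPM in males with DMSO, and 9.60 to 10.4 CPM against 4.64 to 5.88 CPM with myelin. In female DMSO cells the neuron markers were 6.06 to 6.72 CPM in WT and 7.69 to 9.39 CPM in KO. The oligodendrocyte precursor markers with DMSO were 132 to 138 CPM in male WT against 109 to 125 CPM in male KO cells, and 82.9 to 84.1 CPM in female WT against 120 to 134 CPM in female KO cells. In male KO cells with DMSO, 2 of the 8 neuron markers (Gad1, Gad2) and 1 of the 6 fibroblast markers (Lum) were at 0 in all 3 libraries. Microglia markers were 6806 to 6824 CPM in female WT against 6386 to 6556 CPM in female KO cells with DMSO. In male cells with myelin they went the other way, 5287 to 5443 against 5539 to 5574 CPM. They overlapped in male DMSO and female myelin cells. Oligodendrocyte markers in female DMSO cells were 261 to 312 CPM in WT and 189 to 206 CPM in KO. Astrocyte sums in male myelin cells and endothelial sums in male DMSO cells did not overlap either. The part of these cell types in the KO differences was not tested.

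With myelin fewer members differed between genotypes. In male cells 3 were called higher (Dhcr7, Me1, Msmo1) and 2 lower (Idi1, Fads2) in KO, where 10.1% of all genes were called higher and 10.6% lower. In female cells 3 were called higher (Dhcr7, Me1, Cyp51) and 1 lower (Acly), where 3.80% and 3.48% were. With library totals alone, the male split was 3 higher and 4 lower and the female split 3 higher and 2 lower. With DESeq2's size factors the male split was 5 higher and 2 lower, and with no low-count filter 5 higher and 1 lower. Idi1 was -0.50 ± 0.18 in males (adjusted p = 0.032), and the WT libraries of 2.47, 4.31 and 3.07 CPM overlapped the KO libraries of 2.80, 2.32 and 1.97 CPM. That call was lost without KO library 2 (adjusted p = 0.0772), KO library 3 (0.22) or WT library 2 (0.467), and also with DESeq2 (0.0536), with no low-count filter (0.0544) and with only the groups compared in the fit (0.12). Fads2 was -1.49 ± 0.30 in males (adjusted p = 0.001), with no overlap, and 0.35 ± 0.29 in females. Acly in females (-0.11 ± 0.03) lost its call without 4 of 6 libraries (adjusted p 0.056 to 0.273, highest without KO library 1) and with only the groups compared (0.0742), and Msmo1 in males (0.23 ± 0.06) without KO library 3 (0.058).

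The myelin and knockout comparisons share libraries, so their counts are not independent, and the interaction tests the difference directly. In males 3 members responded more strongly to myelin in KO than in WT, where 2.56% of all genes had a called interaction: Fdft1 by -0.48 ± 0.12 (adjusted p = 0.014), Sqle by -0.36 ± 0.08 (0.0036) and Insig1 by -0.35 ± 0.09 (0.022). All 3 were called higher in KO with DMSO and none of them differed by call with myelin. Insig1 measured 20.7, 17.5 and 19.6 CPM in WT and 21.3, 18.3 and 22.4 CPM in KO myelin libraries, which overlap. Fdft1 went from 52.4, 54.1 and 50.5 CPM to 10.2, 9.88 and 9.85 CPM in male WT and from 61.6, 60.4 and 63.01 CPM to 7.04, 8.86 and 9.14 CPM in male KO cells, so the KO libraries lay above WT with DMSO and below WT with myelin. These values carry the uncertainty from the overlap with Ctsb named above. The Fdft1 call was lost without KO DMSO library 3 (adjusted p = 0.0514), KO myelin library 1 (0.142) or WT myelin library 1 (0.0751), and the Insig1 call without any of 7 of 12 libraries (0.0569 to 0.187, highest without WT myelin library 1). In females the 1 call was Scd2, at -0.27 ± 0.05 (adjusted p = 0.0033), where 0.919% of all genes had a called interaction.

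**Figure D4:**
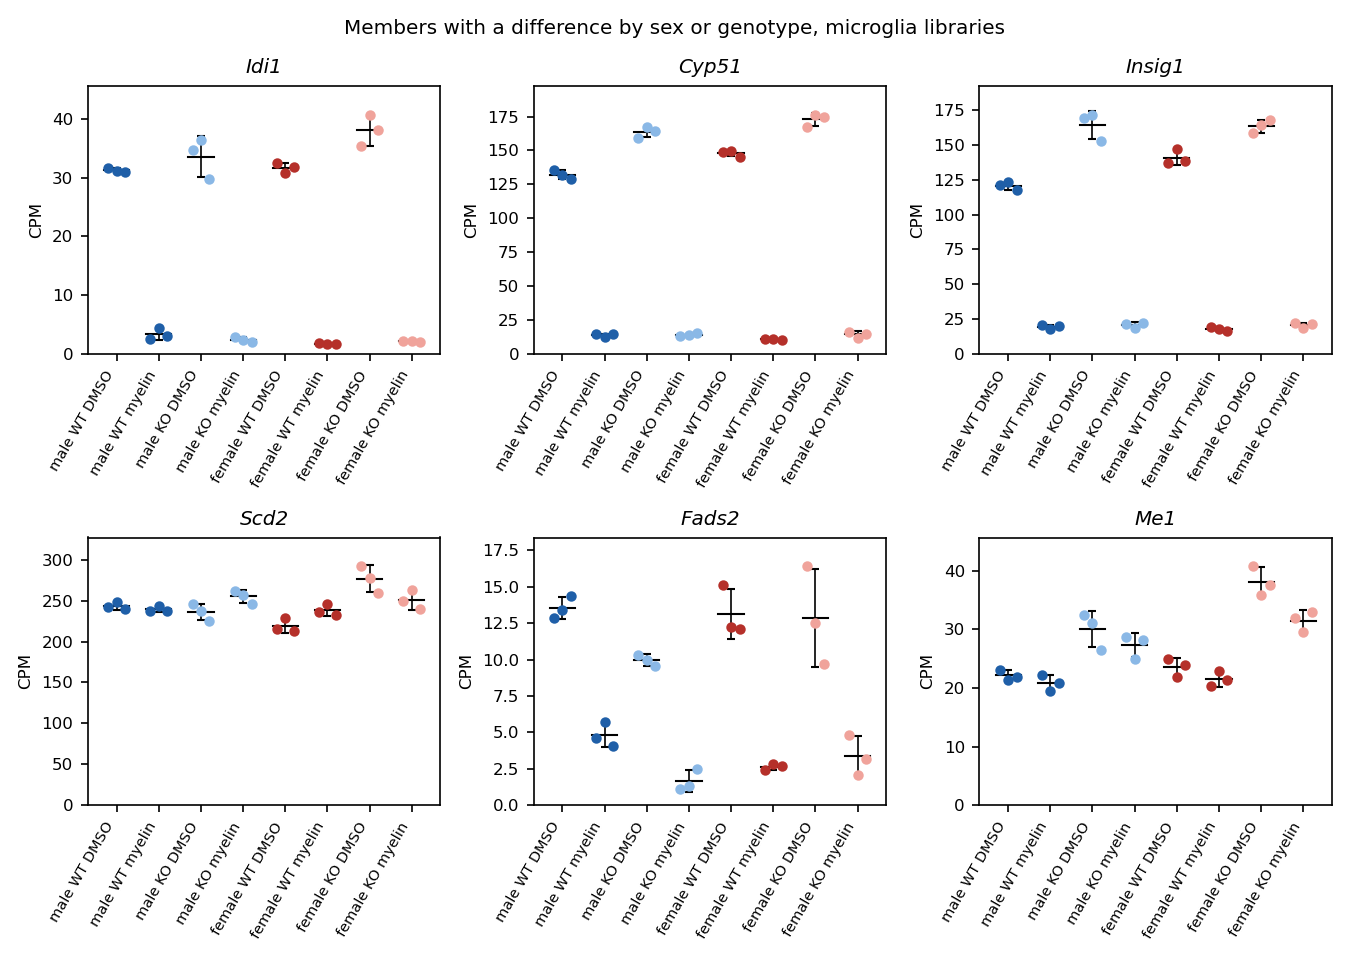
CPM of Idi1, Cyp51, Insig1, Scd2, Fads2 and Me1 in each microglia library; horizontal lines are means and error bars SD of 3 libraries, blue male and red female, dark WT and pale KO. Idi1, Cyp51, Insig1 and Fads2 drop with myelin in all cultures, Me1 is higher in each KO group than in the matching WT group, and Scd2 is highest in female KO cells with DMSO.

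The sexes differed in a few members. In WT cells with DMSO, females were higher for Insig1 (0.23 ± 0.05, adjusted p = 0.0052), Sc5d (0.27 ± 0.06, 0.0066), Fads1 (0.17 ± 0.04, 0.0072), Cyp51 (0.16 ± 0.05, 0.033) and Msmo1 (0.15 ± 0.05, 0.04), and lower for Scd2 (-0.15 ± 0.04, 0.012). That makes 5 members higher, where 1.96% of all genes were called higher, and 1 lower, where 1.75% were. The Sc5d call was kept without any 1 library. Calls for the others were lost without 1 (Insig1, Fads1), 4 (Scd2), 5 (Msmo1) or 6 (Cyp51) of 6 libraries, with adjusted p up to 0.0557, 0.0945, 0.114, 0.237 and 0.147. Scaling by library totals left 2 higher and 2 lower, DESeq2's size factors gave 5 and 2, no low-count filter 4 and 2, and a fit of only the groups compared 5 and 4. Cell marker sums differed too. Oligodendrocyte precursor markers were 132 to 138 CPM in male and 82.9 to 84.1 CPM in female WT DMSO cells. Neuron, astrocyte, fibroblast and endothelial sums were also higher in males, without overlap. Oligodendrocyte markers were lower in males (206 to 245 against 261 to 312 CPM), and microglia and choroid plexus sums overlapped. The part of these cell types in the sex differences was not tested.

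In WT cells with myelin, Idi1 and Cyp51 were lower in females, where 1.62% of all genes were, and Fads1 was higher, where 1.07% were. Idi1 was 1.83, 1.56 and 1.63 CPM in females against 2.47, 4.31 and 3.07 CPM in males, with no overlap (-0.97 ± 0.19, adjusted p = 0.00063; 0.0657 without male library 2). Cyp51 was -0.36 ± 0.08 (adjusted p = 0.0054; 0.0579 without female library 3 and 0.0522 without male library 1). Fads1 was 0.15 ± 0.04 (0.03) and lost its call without 5 of 6 libraries (adjusted p up to 0.164, without male library 1) and with library totals alone, which gave 0 higher and 2 lower.

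Tests of sex by myelin in WT cells called Idi1 (-0.99 ± 0.21, adjusted p = 0.031) and Cyp51 (-0.52 ± 0.09, 0.0064), 2 of the 6 genes called in the whole table (0.0415% of genes). Idi1 lost this call without 10 of 12 libraries, with adjusted p up to 0.633 without male myelin library 2, whose 4.31 CPM is the highest of the myelin libraries, and with library totals alone (0.0622); Cyp51 lost it without male myelin library 1 (0.0842). In KO cells the 1 call was Scd2 (-0.25 ± 0.05, 0.046; 0.0553% of all genes were called), lost without 7 of 12 libraries (adjusted p up to 0.157, without female DMSO library 1), with library totals alone (0.0564) and with only the groups compared (0.171).

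The knockout effect differed between sexes for Insig1 (-0.24 ± 0.07, adjusted p = 0.031) and Scd2 (0.38 ± 0.05, 1.6e-06) with DMSO, and for Idi1 (0.84 ± 0.27, 0.047), Cyp51 (0.38 ± 0.11, 0.029) and Fads2 (1.84 ± 0.42, 0.011) with myelin, female minus male. Of all genes, 7.53% were called with DMSO and 6.51% with myelin. The calls for Scd2 and Fads2 were kept without any 1 library. Those for Insig1, Idi1 and Cyp51 were lost without 7, 9 and 7 of 12 (adjusted p up to 0.131 without male KO library 2, 0.252 without male WT library 2 and 0.26 without female KO library 1). With library totals alone, Insig1 was -0.16 (adjusted p = 0.195) and the DMSO split went from 1 higher and 1 lower to 3 higher and 0 lower (Acly, Acss2 and Scd2). Idi1 and Cyp51 also lost their calls with DESeq2 (adjusted p = 0.0646 and 0.058), with no low-count filter (0.0591 and 0.0616) and with only the groups compared (0.157 and 0.122).

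In hippocampus the module moved little under the TLR7 agonist. The 8 neuron markers summed to 5079 to 6481 CPM in these libraries, against 10.5 CPM or less in every microglia library. In such bulk samples, fewer cells of a type and less RNA per cell cannot be told apart. None of the 35 members was called in males, where 0.221% of all genes were called, in females (0.0232%), in the mean of both sexes (0.215%) or in the sex interaction (0.00581%). At an unadjusted p under 0.05 there were 6, 7, 0 and 12 members, and DESeq2 called 2 (Insig1, Elovl6), 0, 0 and 3 (Insig1, Elovl6, Scd1). Sterol enzymes had a median of 0.03 for males and -0.06 for females, and fatty acid enzymes 0.06 and -0.12.

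Insig1 had the smallest p. In males its lowest, median and highest libraries were 77.8, 85.0 and 91.8 CPM with saline and 92.5, 97.9 and 114 CPM with gardiquimod, which do not overlap (0.23 ± 0.06, adjusted p = 0.0729). In females they were 73.3, 82.1 and 92.4 CPM with saline and 76.5, 77.5 and 83.6 CPM with gardiquimod, which overlap (-0.07 ± 0.06). Groups that do not overlap in this direction were found for 0.232% of all genes in males. The 8 choroid plexus markers ran from 156 to 4060 CPM (median 207) with saline and from 1239 to 5021 CPM (median 3238) with gardiquimod in males, and from 133 to 5295 CPM (median 2366) and 43.9 to 5886 CPM (median 4288) in females. None was at 0 in a group, and their part in the member values was not tested. Elovl6 in males was 40.4, 48.8 and 52.6 CPM with saline and 36.1, 39.2 and 47.6 CPM with gardiquimod, with overlap (-0.25 ± 0.07, adjusted p = 0.079). Scd1 had male medians of 342 CPM with saline and 405 CPM with gardiquimod, and female medians of 362 and 319 CPM, with a sex interaction of -0.51 ± 0.14 (adjusted p = 0.124). The astrocyte marker sum had male medians of 9116 and 10325 CPM and female medians of 9409 and 8398 CPM. For the oligodendrocyte sum they were 7386 and 7798 CPM, and 7819 and 6814 CPM. Treatment groups overlapped for both sums. Neuron, microglia and endothelial medians moved the other way in each sex. The part of these cell types in the Scd1 values was not tested. Between the sexes given saline, 0 members were called by edgeR, where 0.430% of all genes were; 5 had an unadjusted p under 0.05, and DESeq2 called 2, Hmgcs1 and Elovl6, both lower in females.

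Under the TLR7 inhibitor the median of the fatty acid branch had opposite signs in the sexes. Not all of its members followed. With the inhibitor, Acly and Elovl6 had lower mean levels in males, and Acly and Me1 had higher mean levels in females. The branch median was 0.29 for males and -0.37 for females, whereas the sterol branch had -0.05 for each. No member was called in males (0.105% of all genes called), in females (0.0876%) or in the mean (0.0117%). There were 9, 6 and 1 members at an unadjusted p under 0.05, and DESeq2 called 1 (Fdft1), 0 and 0. The sex interaction, female minus male, called 2 members lower, Srebf1 and Acaca, where 1.68% of all genes were called lower and 2.41% in either direction. DESeq2 called 7, with Acat2 and Fdft1 higher and Lss, Srebf1, Acaca, Fasn and Scd2 lower. Between the control sexes 0 members were called by edgeR (0.0642% of all genes) and 0 by DESeq2, and 5 had an unadjusted p under 0.05. The sex interaction of the inhibitor had a median of -0.66 over the fatty acid branch and -0.01 over the sterol branch; scaling by library totals alone moved the interaction values by 0.16 and the male values by -0.11.

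Srebf1 measured 75.5, 71.7 and 59.1 CPM in male controls and 90.7, 91.8, 100, 93.3, 90.2 and 106 CPM in male inhibitor libraries, which do not overlap, as for 5.45% of all genes in this direction. In females it measured 81.5, 108 and 105 CPM in controls and 72.8, 56.8, 91.9, 93.5 and 83.5 CPM with inhibitor, which overlap. The effects were 0.47 ± 0.14 and -0.30 ± 0.14, and their difference -0.78 ± 0.20 (adjusted p = 0.0478). That call was lost without any of 11 of 17 libraries (adjusted p 0.0536 to 0.16, highest without male control 3), with library totals alone (0.0753) and with no low-count filter (0.0614).

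Acaca measured 66.9, 58.1 and 59.5 CPM in male controls and 77.2, 79.7, 78.6, 82.1, 64.4 and 78.1 CPM in male inhibitor libraries, which overlap through library 5. In females it measured 72.8, 77.7 and 80.8 CPM in controls and 58.4, 49.5, 69.0, 59.4 and 59.5 CPM with inhibitor, which do not overlap, as for 3.35% of all genes in this direction. The effects were 0.32 ± 0.10 and -0.38 ± 0.10, and their difference -0.70 ± 0.15 (adjusted p = 0.0254). It was lost without female control 3 (adjusted p = 0.0946), male control 2 (0.0562) or male control 3 (0.0853), and with no low-count filter (0.0507). With age as a covariate the interaction calls for Srebf1 and Acaca were kept.

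**Figure D5:**
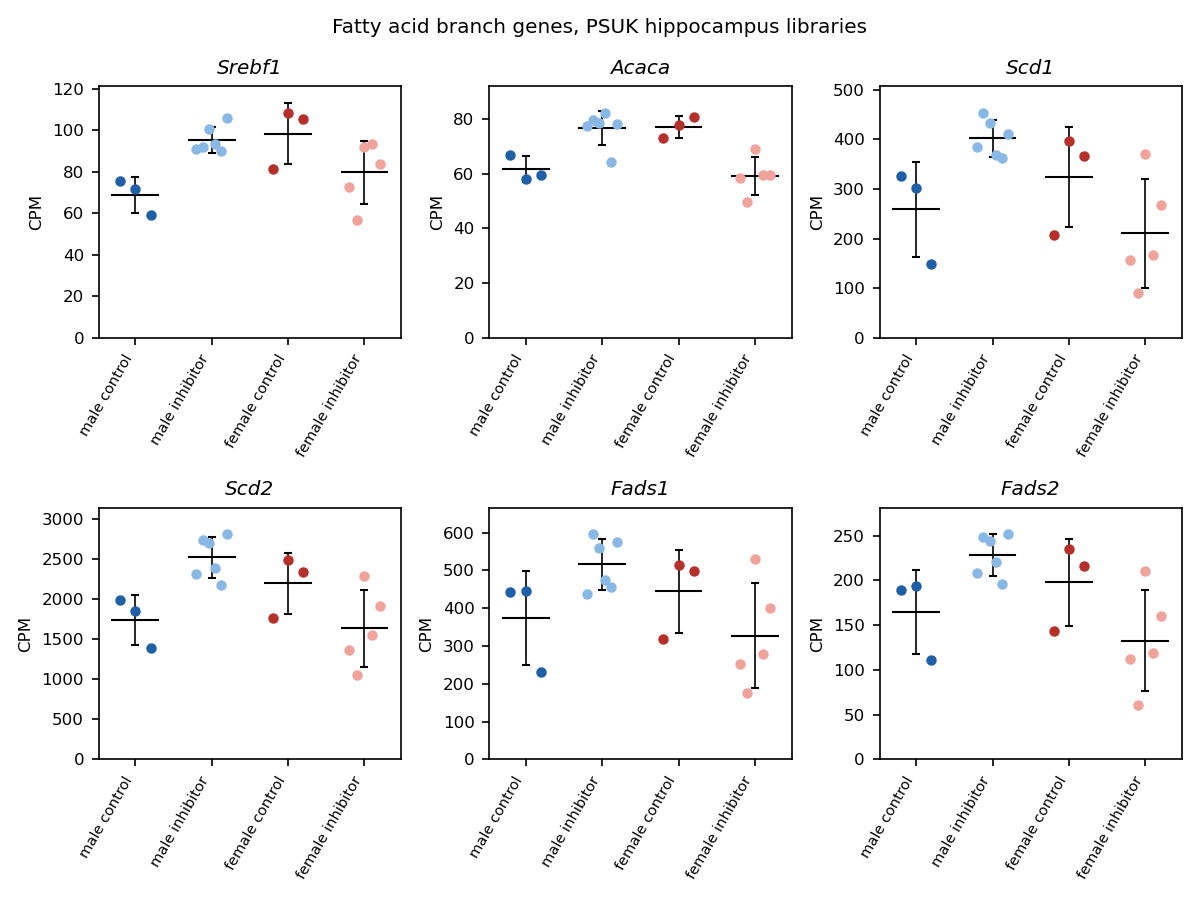
CPM of Srebf1, Acaca, Scd1, Scd2, Fads1 and Fads2 in each PSUK hippocampus library; horizontal lines are means and error bars SD of 3 male control, 6 male inhibitor, 3 female control and 5 female inhibitor libraries. Male inhibitor libraries sit higher than most male controls and female inhibitor libraries lower than most female controls; in the desaturase panels male control 3 and female inhibitor 2 are the lowest of their groups.

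The desaturases had interaction values in the same direction that did not pass the test: Scd1 -1.25 ± 0.47 (adjusted p = 0.117), Fads2 -1.05 ± 0.39 (0.115), Scd2 -0.96 ± 0.30 (0.0774) and Fads1 -0.91 ± 0.40 (0.165). Fasn was -0.61 ± 0.20 (0.0839). Scd2 measured 1981, 1855 and 1389 CPM in male controls and 2308, 2728, 2698, 2384, 2179 and 2802 CPM with inhibitor, which do not overlap. In females it measured 1766, 2489 and 2336 CPM in controls and 1361, 1053, 2288, 1550 and 1910 CPM with inhibitor, which overlap.

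Markers of several cell types moved with treatment in this experiment. The summed level of 8 astrocyte markers, which include Gfap, Aqp4 and Slc1a3, was 7981, 8218 and 3795 CPM in male controls and 9410 to 13084 CPM in male inhibitor libraries. It was 6703, 10283 and 10895 CPM in female controls and 4764, 2838, 10536, 6114 and 8228 CPM in female inhibitor libraries. Male control 3 and female inhibitor 2, the lowest for Scd1, Scd2, Fads1 and Fads2 in their groups, were also the lowest of their groups for this sum. The oligodendrocyte precursor markers were 465 to 608 CPM in male controls and 649 to 789 CPM in male inhibitor libraries, with no overlap, and 591 to 691 CPM against 497 to 687 CPM in females. The choroid plexus markers were 42.9 to 1600 CPM in female controls and 3698 to 4737 CPM in female inhibitor libraries, with no overlap, and 3420 to 3592 CPM against 90.1 to 4742 CPM in males. None of these markers was at 0 in a group. The part of these cell types in the result was not tested.

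No hippocampal library was labelled as given myelin or as Tlr7 knockout. The myelin fall and the knockout rise of the sterol branch could therefore not be looked for there. No sterol enzyme was called by edgeR in the hippocampal comparisons. Hippocampal libraries also varied more within groups (edgeR common coefficient of variation 0.132 and 0.179, against 0.0507 in microglia), so small changes were harder to call. Idi1, the most responsive sterol enzyme in microglia, had fold changes of 0.11 ± 0.09 and -0.10 ± 0.09 with gardiquimod and 0.38 ± 0.23 and -0.50 ± 0.24 with the inhibitor in males and females. Dhcr7 had -0.12 ± 0.07 and 0.00 ± 0.07 with gardiquimod and -0.30 ± 0.09 (adjusted p = 0.199) and -0.02 ± 0.10 with the inhibitor. Microglia are a small part of hippocampus: the 12 microglia markers summed to 452 to 599 CPM in the agonist and 257 to 513 CPM in the inhibitor libraries. The part of microglia in the hippocampal values was not tested.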

How the data were processed

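The files deposited by the authors hold read counts per gene, whole numbers that are not normalized, from 3′ mRNA libraries. Genome builds GRCm38 and mm10 and the tool DESeq2 1.38.3 are named per the submitters' processing notes; the sources used here give no aligner, counting tool or strand setting. Libraries were grouped by their labels. Total counts were 14332532 to 23477906 per library, so genes at a few counts, such as Fdps with myelin, are imprecise.

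Each experiment was fitted on its own with 1 mean per group by edgeR 4.0.16 (R 4.3.3, limma 3.58.1): filterByExpr (minimum count 10, minimum total 15), TMM scaling, a robust quasi-likelihood fit and 2-sided contrasts, with Benjamini-Hochberg adjustment over all genes tested. The procedure was tested on simulated data. An SE is the absolute log2 fold change divided by the square root of F. Fold values are from fitted log2 changes. Alternatives were DESeq2 1.42.0, its size factors (RLE), library totals alone, no filter, only the groups compared, a replicate block (microglia), age as a covariate (inhibitor) and leaving out each library (microglia and inhibitor). Deviations from group means of same-numbered DMSO and myelin libraries correlated in female KO cells (r = 0.487, 0.267 and 0.162). These correlations lay between -0.0500 and 0.0411 in the other 3 cultures, so a block for female KO cells alone was added after seeing the data. In female KO cells DMSO library 3 correlated more with myelin library 2 (0.31). Between cultures of different sex or genotype, r was over 0.1 for 10 of 72 same-numbered pairs. That held for 3 of 144 pairs with different numbers. The highest same-numbered value was 0.193, between female WT and female KO myelin libraries 1.

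The members and lists were chosen with earlier results of these data known. All 35 members may be named. Values per library are given for the largest and smallest mean myelin change of each branch, members called in a genotype or sex by myelin interaction, the 6 smallest p over the knockout comparisons, and members called in a hippocampal comparison or with the 3 smallest p in each hippocampal experiment; Hmgcs1, and Scd2 in the inhibitor experiment, were added after their values were seen. Further genes come from the fixed lists. Promoters are RefSeq windows of GRCm38.p6.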

Additional observations from a re-analysis of the deposited data

Results flagged for a closer look

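In hippocampal groups of 4 to 10 libraries, 8 of 210 sets of member values held a library apart from the rest of its group by Dixon's test, which flags about 1 in 20 groups by chance. With saline, Sqle measured 70.86 CPM in male library 4, Nsdhl 22.54 CPM in female library 4 and Dhcr7 34.23 CPM in female library 7, each above the other 6. With gardiquimod, Hsd17b7 measured 22.7 CPM in male library 4, above the other 6, and Acaca 59.82 CPM in male library 3, below them. Insig1 measured 83.58 CPM in female gardiquimod library 5, above the other 6 of its group, Fdft1 measured 67.41 CPM in male inhibitor library 6, above the other 5, and Acaca measured 64.39 CPM in male inhibitor library 5, below the other 5.

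The response to myelin differed between genotypes by a test of the difference for Fdft1 (-0.48, log2), Sqle (-0.36) and Insig1 (-0.35) in males and for Scd2 (-0.27) in females. It differed between the sexes for Idi1 (-0.99) and Cyp51 (-0.52) in WT and for Scd2 (-0.25) in KO cells. The knockout effect differed between the sexes for Insig1 (-0.24) and Scd2 (0.38) with DMSO and for Idi1 (0.84), Cyp51 (0.38) and Fads2 (1.84) with myelin. The inhibitor effect differed between the sexes for Srebf1 (-0.78) and Acaca (-0.70) in hippocampus.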

How the results depend on the processing

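No called result reversed its direction under any alternative run. Of the 118 myelin calls, 115 were kept without any 1 library, as were 25 of the 35 knockout calls, 4 of the 12 interaction calls and 1 of the 9 sex calls in microglia. Counts of members called that moved by over 1.5 times were as follows. With DESeq2 they were 2 for sex in saline hippocampus, 2 for gardiquimod in males, 3 for its sex interaction, 1 for sex by genotype with myelin, 1 for the inhibitor in males and 7 for its sex interaction (0, 0, 0, 3, 0 and 2 with edgeR). With no filter they were 5 for sex in WT myelin cells, 1 for sex by genotype with myelin and 0 for the inhibitor interaction. Fitting only the groups compared gave 5 for sex in WT myelin cells, 5 for genotype by myelin in males, 1 for sex by genotype with myelin, 0 for sex by myelin in KO cells and 1 for the inhibitor in males. Library totals alone gave 0 and 1 for sex by myelin in KO and WT cells and 1 for the inhibitor interaction. Leaving out 1 library gave 2 to 5 for sex in WT DMSO cells (without female library 3 the lowest), 1 to 2 in WT myelin cells, 1 to 4 and 1 to 2 for genotype by myelin in males and females, 1 to 3 for sex by genotype with either treatment, 0 to 1 and 1 to 2 for sex by myelin in KO and WT cells, and 0 to 11 for the inhibitor interaction. The difference between the sterol and fatty acid medians ranged from -1.49 to -1.40, -1.45 to -1.35 and -1.53 to -1.38 with myelin in female KO, female WT and male KO cells, and with knockout from -0.040 to 0.17 in female DMSO, -0.13 to 0.059 in female myelin and 0.012 to 0.13 in male myelin cells. The 3 same-numbered pairs of female KO cells had correlated deviations (r over 0.1), and none of the 9 of the other cultures. Between cultures 10 of 72 same-numbered pairs did, so shared numbers can also touch the comparisons of genotypes and sexes. With the replicate block in all cultures, sex by genotype in DMSO cells called 4 members in place of 2. With the block in female KO cells alone, added after seeing the data, myelin called 32 members there in place of 31, and the block ended no call. The inhibitor experiment has 3 control libraries per sex, which limits its precision, and Fdps, Elovl6, Fads2 and Idi1 with myelin rest on few counts.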
